A study of Rattus norvegicus with 12 samples.

Results

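Rat livers that had 30 min of warm ischemia alone (WI 30 min) were compared with livers that went on to cold storage and cold machine perfusion without oxygen (HMP 1 h). The comparison rests on 3 livers a side, so 6 of the 12 livers sequenced, with 1 library per liver, and each liver was taken by its label. The donors were male Sprague Dawley rats in both groups, and per the methods they were 6 to 8 weeks old. The livers stayed in the body through 30 min of warm ischemia after cardiac arrest and heparin, and were flushed through the aorta with heparinized saline. The WI 30 min livers were taken at that point. The HMP 1 h livers were stored for 3 h in cold HTK, a histidine-buffered preservation solution, and were then perfused for 1 h through the portal vein at low flow, with no oxygenator. The groups thus differ in cold storage, cold perfusion and the time since ischemia, whose parts in a difference cannot be told apart. The other livers had 4 h of static cold storage (SCS 4 h) or 3 h of storage and 1 h of oxygenated perfusion (HOPE 1 h), and serve below to show where HMP 1 h differs.

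A liver donated after circulatory death goes without blood flow while still warm, then is cooled to slow its metabolism. Hypothermic machine perfusion moves cold solution through the sinusoids, which restores flow and shear but, without an oxygenator, little oxygen. Hepatocytes make most plasma proteins and burn fatty acids, Kupffer cells are the resident macrophages, and both can switch on genes that answer interferons when nucleic acids are sensed. Messenger RNA was read at the end of preservation, before any rewarming. In whole tissue, fewer cells of a type and less RNA per cell cannot be told apart.

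Total counts were 15262961 to 17083357 in WI 30 min and 16563806 to 17240977 in HMP 1 h livers. Values per liver are CPM, the counts scaled to a common library size after TMM correction for library composition. Of 33744 genes, 13687 passed the filter on low counts, and these held at least 99.9% of each library. HMP liver 1 stood apart: transcripts of mitochondrial DNA took 18.7% of its counts, against 4.79% and 5.27% in HMP livers 2 and 3 and 5.07% to 5.77% in the WI 30 min livers. Markers of cells other than hepatocytes set it apart too: their score, a mean of log2 CPM relative to all 12 livers over macrophage, endothelial, stellate and biliary genes, reached 1.04 there, against −0.21 and −0.33 in HMP livers 2 and 3 and −0.46 to −0.23 in the WI 30 min livers. The counts at an unadjusted p under 0.05 and the medians of the gene lists are therefore given with and without HMP liver 1. Nothing in the labels ties same-numbered livers together, and p-values measure only the spread between these livers. Albumin, the main hepatocyte product, took 120380 to 133200 CPM in WI 30 min and 101740 to 139320 CPM in HMP 1 h livers (Alb log2 fold change −0.03, edgeR adjusted p = 0.974), and the 11 hepatocyte markers had a median log2 fold change of 0.03 (0.16 without HMP liver 1).

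In HMP 1 h livers, interferon-stimulated genes and genes of antigen processing lay higher, and genes of fatty acid oxidation, cytosolic and mitochondrial chaperones, the proteasome and red blood cells lay lower, than in livers after warm ischemia alone. No single gene reached an adjusted p under 0.05 in edgeR's quasi-likelihood test with all livers, so 0 genes were called (0%). The smallest adjusted p was 0.0507, and 41 genes were higher and 63 lower at an adjusted p under 0.1, a threshold added after the data were seen. At an unadjusted p under 0.05, 991 genes were higher (7.24%) and 903 lower (6.6%). DESeq2, another count test, called 170 higher (1.24%) and 220 lower (1.61%). All 3 HMP 1 h livers lay above all WI 30 min livers for 1036 genes (7.57%) and below them for 1157 (8.45%). Without HMP liver 1, edgeR called 29 of 13887 genes (0.209%), 17 higher and 12 lower, and at an unadjusted p under 0.05 there were 839 higher (6.04%) and 755 lower (5.44%). These shares are the background for each list below. Of the 991 genes higher with all livers, 990 kept their sign and 492 (49.6%) their p under 0.05 without HMP liver 1. Of the 903 lower genes, 903 kept their sign and 539 (59.7%) their p. Both sets were selected in a fit that includes the livers kept here, so the kept signs are not a separate check.

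**Figure D1:**
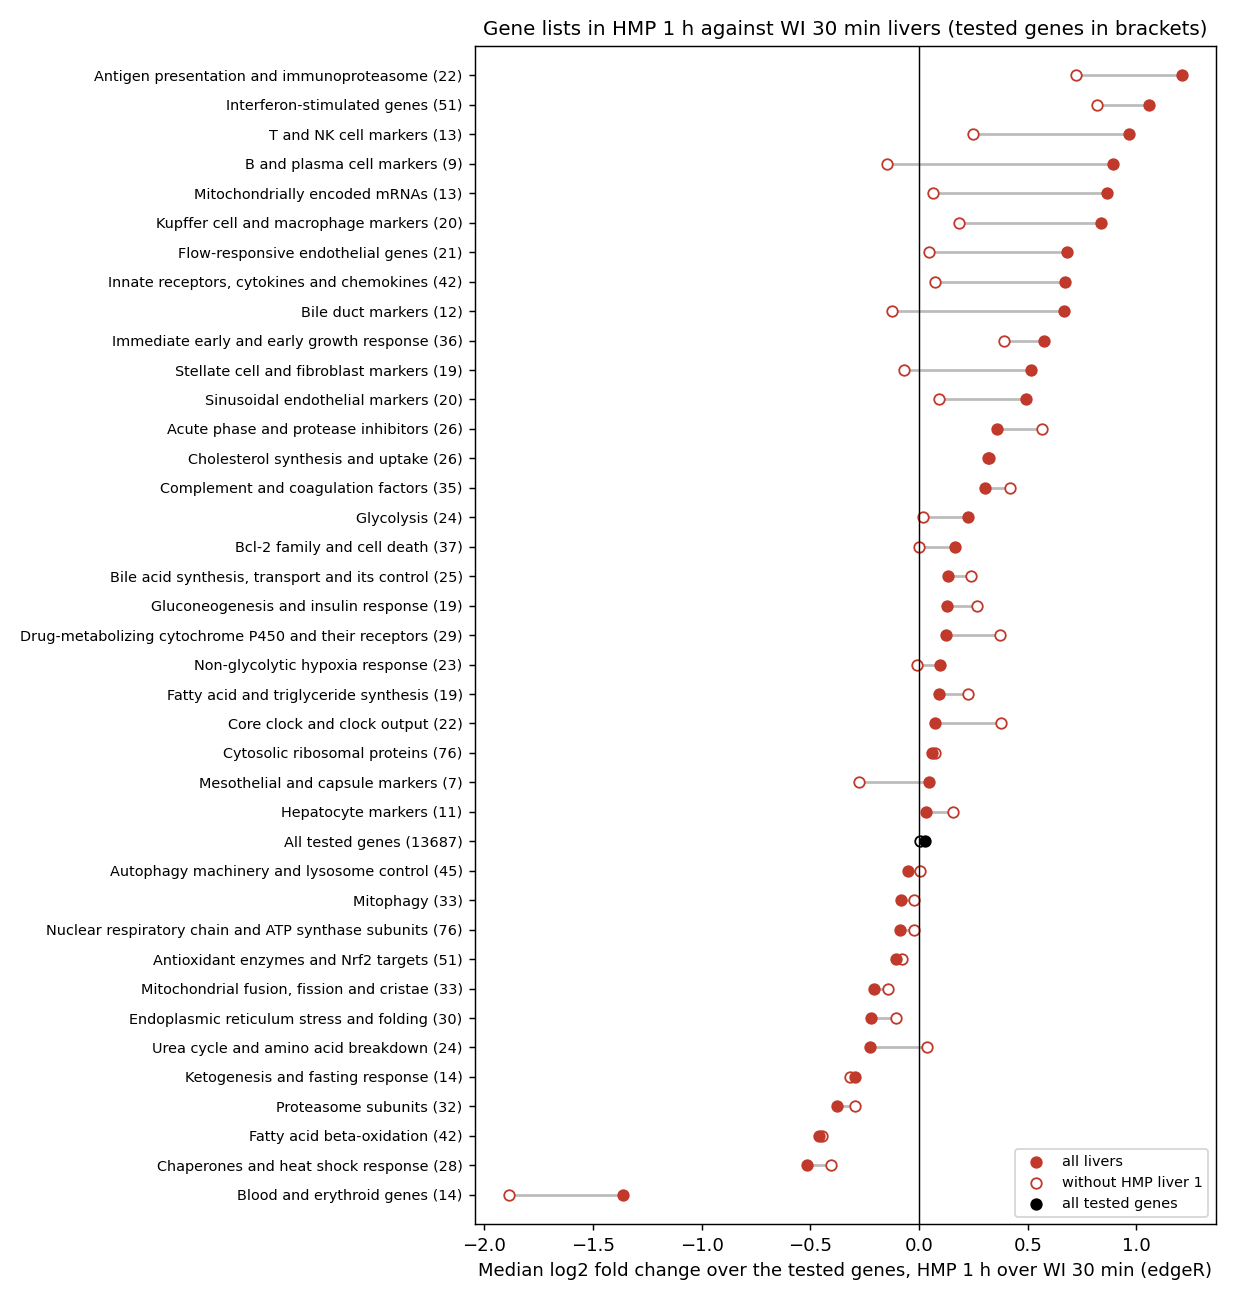
Median log2 fold change of HMP 1 h over WI 30 min for each gene list with at least 5 tested genes, with filled points for all livers, open points without HMP liver 1 and black points for all tested genes. Interferon-stimulated genes go from 1.06 to 0.82, whereas Kupffer cell markers go from 0.84 to 0.18 and mitochondrially encoded mRNAs from 0.87 to 0.06.

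Genes that cells switch on in answer to interferons, most of them antiviral, lay higher in HMP 1 h livers. Of the 51 tested, 48 had a positive log2 fold change (median 1.06, against 0.03 over all tested genes), 35 were higher at an unadjusted p under 0.05 and 0 lower, and DESeq2 called 17. All HMP 1 h livers lay above all WI 30 min livers for 33 of them. Without HMP liver 1 the median was 0.82, with 31 higher and 0 lower. The list score of the livers was −0.93 to −0.40 in WI 30 min, and 0.72, 0.18 and 0.51 in HMP livers 1, 2 and 3. The groups did not overlap in this score.

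Irf7, a transcription factor that amplifies type I interferon responses (ENSRNOG00000017414, chromosome 1 of Rnor_6.0 from 214248837 to 214252456), had 6.82, 5.81 and 12.7 CPM in WI 30 min livers 1, 2 and 3 and 49.1, 22.9 and 49.3 CPM in the HMP 1 h livers. The lowest HMP 1 h liver lay above the highest WI 30 min liver, and the log2 fold change was 2.26 with a standard error of 0.43 (adjusted p of 0.0906 by edgeR and 6.48e-05 by DESeq2). Mx1, a dynamin-like GTPase that blocks viruses, had 2.14, 1.69 and 4.05 CPM in WI 30 min and 18.3, 8.74 and 13.6 CPM in HMP 1 h livers (log2 fold change 2.36, standard error 0.477, edgeR adjusted p = 0.0921). Its relative Mx2 had a log2 fold change of 2.31. Oas1a, which makes the 2-5A messenger that activates RNase L, had 1.80, 0.75 and 2.36 CPM in WI 30 min livers and 12.2, 6.996 and 11.5 CPM in HMP 1 h livers. None of these genes overlapped between the groups, which was a condition for naming them among the largest changes. Slfn4, a Schlafen gene of myeloid cells, had the smallest p of the list, with 3.67, 3.06 and 9.25 CPM against 35.2, 15.7 and 24.2 CPM (log2 fold change 2.23, edgeR adjusted p = 0.0903). Oasl and Ubd, a ubiquitin-like modifier that interferon gamma induces, had log2 fold changes of 2.28 and 2.70, and Ubd lay at 6.11, 41.6 and 10.46 CPM in HMP livers 1, 2 and 3 against 1.33 to 3.84 CPM in WI 30 min. Not every member differed. Rsad2, which encodes the antiviral enzyme viperin and was named after its values were seen, had 11.3, 6.06 and 6.89 CPM in WI 30 min and 10.1, 6.12 and 7.70 CPM in HMP 1 h livers, a log2 fold change of −0.02.

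The 22 tested genes of antigen presentation and the immunoproteasome were all positive (median 1.21), with 19 higher at an unadjusted p under 0.05, 0 lower and 11 called by DESeq2. Without HMP liver 1 all 22 stayed positive, the median was 0.72 and 13 were higher. RT1-S3, a class I major histocompatibility gene (ENSRNOG00000000777, chromosome 20 from 3176107 to 3179818), had 99.2, 128 and 134 CPM in WI 30 min and 288, 299.5 and 367 CPM in HMP 1 h livers. Its log2 fold change was 1.40 (standard error 0.207, edgeR adjusted p = 0.0903), and it was called without HMP liver 1 (log2 fold change 1.48, adjusted p = 0.0347). Reads of RT1 genes, which are close copies, may be shared between them. Psmb9, a catalytic subunit that interferon gamma puts into the proteasome, had 8.69, 9.497 and 8.76 CPM in WI 30 min and 21.3, 22.9 and 19.9 CPM in HMP 1 h livers (log2 fold change 1.25). Tap1, the peptide pump of the class I pathway, had 17.6, 15.7 and 17.8 CPM against 37.9, 31.7 and 39.8 CPM. The HMP 1 h livers lay above the WI 30 min livers for each of these genes.

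Class I and class II genes were set side by side without HMP liver 1, a division made after their values were seen. Of the genes of the class I pathway, RT1-S3, Psmb8, Psmb9 and Tap1 had log2 fold changes of 1.40, 1.17, 1.25 and 1.10 with all livers and 1.48, 1.13, 1.26 and 1.08 without it. These do not stand for the whole pathway. With all livers Tap2 and Psmb10 had 1.44 and 0.83, whereas B2m, Tapbp and Psme2 had 0.36, 0.47 and 0.05. Their values without HMP liver 1 are not given here, and the median of the whole list fell from 1.21 to 0.72. Cd74, the invariant chain of class II molecules on antigen-presenting cells, had 122, 103 and 82.9 CPM in WI 30 min livers, 502 CPM in HMP liver 1, and 103 and 127 CPM in HMP livers 2 and 3. Its log2 fold change went from 1.25 to 0.17, that of the class II gene RT1-Da from 1.09 to 0.18, and that of Ciita, the class II transactivator, from 1.10 to 0.23. The difference between the class I and class II genes was not tested.

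The promoters of these genes carried matches to the interferon-stimulated response element more often than promoters at large. The letters searched were GAAANNGAAA on both strands, in the RefSeq promoter table of build GRCr8, whose windows run from 250 bases before to 50 bases after each gene's start. Of the 51 tested interferon-stimulated genes 38 had a window and 22 of these held a match (57.9%), of the 22 antigen presentation genes 19 had a window and 8 held a match (42.1%), and of all 33469 windows 1312 did (3.92%). A match describes letters and not a bound site. With all livers, interferon-stimulated genes with a match had a median log2 fold change of 0.98 and those without one 0.90, whereas antigen presentation genes had 0.96 with a match and 1.51 without one. Stretches of 4 members are shown, in the direction of the gene, with matches in capitals; GAAANNGAAA on the other strand reads as TTTCNNTTTC.
Irf7 (chr1:205800043-205800132, minus strand): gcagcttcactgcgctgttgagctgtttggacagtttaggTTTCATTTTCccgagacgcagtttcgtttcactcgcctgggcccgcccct
Oas1a (chr12:41330385-41330465, plus strand): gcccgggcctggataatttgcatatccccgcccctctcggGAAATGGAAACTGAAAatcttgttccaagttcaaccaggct
Ifit3 (chr1:241527242-241527325, plus strand): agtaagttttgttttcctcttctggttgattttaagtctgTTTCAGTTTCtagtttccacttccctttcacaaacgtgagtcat
Tap1 (chr20:4668615-4668704, minus strand): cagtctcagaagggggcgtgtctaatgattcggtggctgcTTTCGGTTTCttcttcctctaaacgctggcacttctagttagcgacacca
In Oas1a overlapping matches form 1 run, which begins 41 bases before the start site. Ifit3, an antiviral protein that binds other IFIT proteins, was chosen after its values were seen and had a log2 fold change of 1.88.

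**Figure D2:**
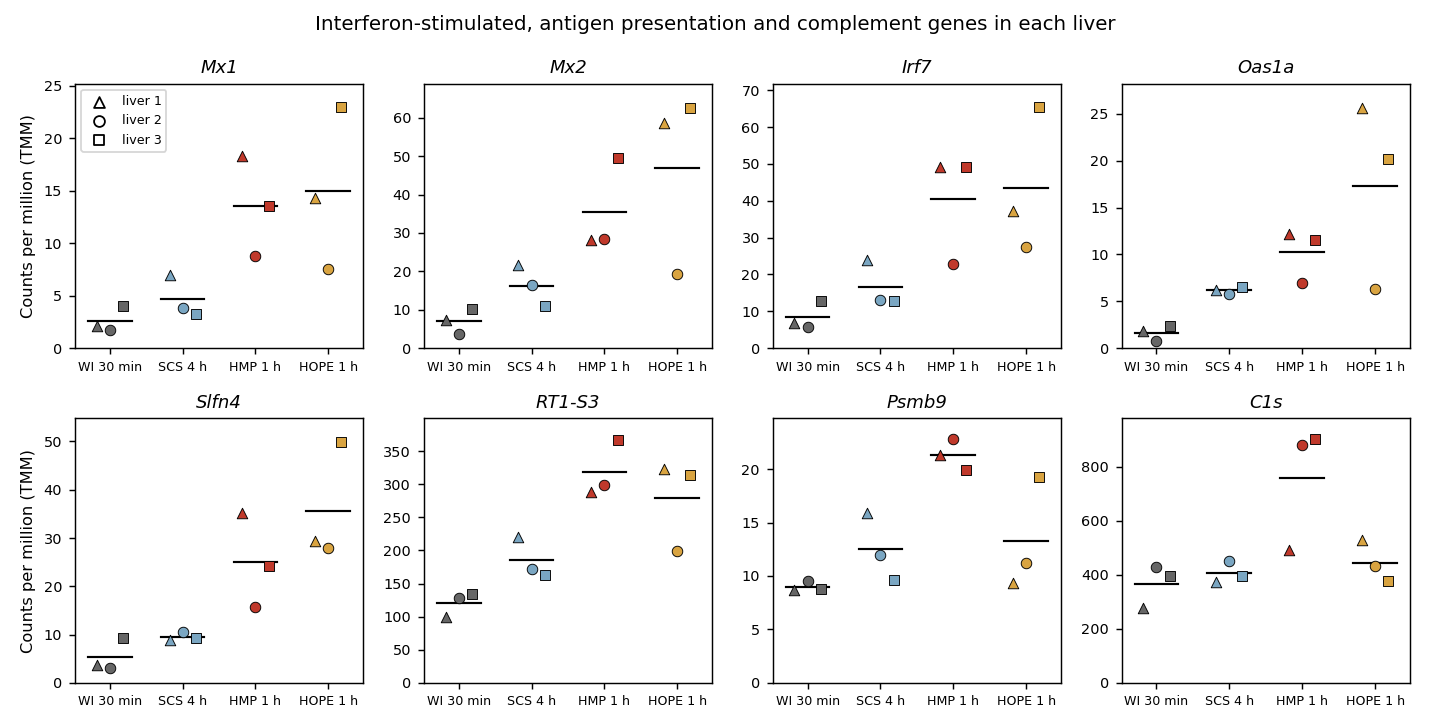
CPM (TMM scaled, axes from 0) of 8 genes in each of the 12 livers, with symbols for liver 1, 2 and 3 of a group and bars at group means. RT1-S3 lies at 99.2 to 134 in WI 30 min and 288 to 367 in HMP 1 h, and C1s at 276 to 429 in WI 30 min and 491 to 901 in HMP 1 h.

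Cell type markers were read beside these lists. The 20 tested Kupffer cell and macrophage markers were all positive (median 0.84, 10 higher at an unadjusted p under 0.05, 0 lower), and their summed level was 759 to 945 CPM in WI 30 min, 2613 CPM in HMP liver 1, and 878 and 979 CPM in HMP livers 2 and 3. Without HMP liver 1 the median was 0.18, with 1 higher and 1 lower. Marco, a scavenger receptor of these cells, had 21.8, 27.1 and 29.7 CPM in WI 30 min and 156, 34.4 and 56.2 CPM in HMP 1 h livers. All HMP 1 h livers lay above the WI 30 min livers, HMP liver 1 by far the most. The sinusoidal endothelial, stellate cell, bile duct, T and NK cell, and B and plasma cell markers had medians of 0.49, 0.52, 0.67, 0.97 and 0.89 with all livers and 0.09, −0.07, −0.12, 0.25 and −0.15 without HMP liver 1. The 3 neutrophil markers had a median of 0.59 and the 7 mesothelial markers 0.05 (0.29 and −0.28 without HMP liver 1). Innate receptors, cytokines and chemokines followed the same library, since 11 of 42 were higher with all livers (median 0.67) and 3 were higher and 1 lower without HMP liver 1 (median 0.07). Flow-responsive endothelial genes, which answer shear, had a median of 0.68 (3 of 21 higher, 0 lower) and of 0.05 without HMP liver 1 (1 higher, 1 lower). The part of these cell markers in the immune lists was not tested, beyond the medians of 0.82 for interferon-stimulated genes and 0.72 for antigen presentation genes without that liver.

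Plasma proteins of the hepatocyte lay higher in HMP livers 2 and 3 than in HMP liver 1. The summed level of the acute phase list was 70760, 74581 and 78702 CPM in WI 30 min and 68778, 105030 and 116340 CPM in HMP livers 1, 2 and 3. Of 26 acute phase and protease inhibitor genes 10 were higher at an unadjusted p under 0.05 (median 0.36) and 17 without HMP liver 1 (median 0.57), with 0 lower in both. Of 35 complement and coagulation factors 9 were higher (median 0.30) and 20 without it (median 0.42), again with 0 lower. C1s, the protease of the first complement component (chromosome 4 from 157143592 to 157155609), had 276, 429 and 395 CPM in WI 30 min and 491, 880 and 901 CPM in HMP 1 h livers. It was called without HMP liver 1 (log2 fold change 1.29, edgeR adjusted p = 0.0347), and with all livers its log2 fold change was 1.05 (adjusted p = 0.115 from edgeR). Its partner C1r had 558 to 631 CPM in WI 30 min and 784 to 1162 CPM in HMP 1 h livers. Fga and Fgb, chains of fibrinogen, had log2 fold changes of 0.88 and 0.91. Fga lay at 4050, 4525 and 4418 CPM in WI 30 min and 5947, 8471 and 9533 CPM in HMP 1 h livers. LOC297568 on chromosome 4, in the files from 154391647 to 154729310, had 4200 to 6557 CPM in WI 30 min and 9555 to 14909 CPM in HMP 1 h livers, and was called without HMP liver 1 (log2 fold change 1.34, edgeR adjusted p = 0.0378). HMP liver 1 was the lowest HMP 1 h liver for each of these genes but lay above the WI 30 min livers. Mt1, a metal-binding metallothionein, had a log2 fold change of 0.90.

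Immediate early genes, which are transcribed within minutes of a stimulus, were higher in 14 of 36 cases at an unadjusted p under 0.05 and lower in 1 (median 0.57), and in 10 and 1 without HMP liver 1 (median 0.39). Egr1 and Csrnp1, transcription factors of this class, had log2 fold changes of 0.69 and 0.86. Jun, a subunit of AP-1, had 161, 151 and 181 CPM in WI 30 min and 325, 327 and 316 CPM in HMP 1 h livers, and was named after its values were seen. The spread within each group was far below the gap between them (log2 fold change 0.97, standard error 0.278, edgeR adjusted p = 0.176). Ccn1, a matricellular protein that stretch and flow induce, had 21.4 to 32.9 CPM in WI 30 min and 143, 44.5 and 65.2 CPM in HMP 1 h livers. Rbm3, an RNA-binding protein that cold induces, had 9.98, 11.9 and 13.5 CPM against 26.8, 20.1 and 19.9 CPM (log2 fold change 0.92, edgeR adjusted p = 0.177), and the cold-induced Cirbp had a log2 fold change of 0.54 with overlapping livers. Of the 4 tested cold-inducible genes 1 was higher with and without HMP liver 1 (median 0.36 and 0.15).

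Fatty acid oxidation held the most lower genes of the 40 lists. Of 42 genes 37 had a negative log2 fold change (median −0.46), 28 were lower at an unadjusted p under 0.05, 1 was higher, and DESeq2 called 16 lower. With HMP liver 1 left out, 23 were lower and 1 higher (median −0.44). Cyp4a1, the omega-hydroxylase of fatty acids (ENSRNOG00000009597, chromosome 5 from 134492756 to 134507154), had 1133, 1074 and 624 CPM in WI 30 min and 500, 374 and 418 CPM in HMP 1 h livers. The groups did not overlap, with a log2 fold change of −1.13 (standard error 0.212, edgeR adjusted p = 0.0903). Cpt1a, which admits long-chain fatty acids to mitochondria, had 968, 1172 and 1054 CPM in WI 30 min and 651, 456 and 715 CPM in HMP 1 h livers (log2 fold change −0.81, adjusted p = 0.0975). Hadhb, the thiolase of the trifunctional protein, had 680, 551 and 417 CPM against 317, 251 and 316 CPM. WI liver 3 was the lowest of its group for Cyp4a1 and Hadhb. Vnn1, a pantetheinase, and Acat1, of ketone body metabolism, both on the ketogenesis and fasting list, had log2 fold changes of −1.66 and −0.67, and 5 of the 14 genes of that list were lower and 0 higher with and without HMP liver 1 (median −0.30 and −0.32).

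Acyl-CoA thioesterases, which split fatty acyl-CoA, showed wide differences with a wide spread. Acot1 had 73.8, 23.4 and 9.07 CPM in WI 30 min livers and 7.43, 1.06 and 1.78 CPM in HMP 1 h livers, so the gap between the groups was small beside the spread among the WI 30 min livers (log2 fold change −3.35, standard error 0.854, edgeR adjusted p = 0.139). Acot2 had 163, 141 and 72.0 CPM against 88.4, 26.3 and 28.5 CPM, with HMP liver 1 inside the range of the WI 30 min livers. Without HMP liver 1, Acot2 (log2 fold change −2.19, adjusted p = 0.0409) and Acot4 (log2 fold change −1.77, adjusted p = 0.00647) were called lower by edgeR. Acot2, Acot1 and Acot4 lie near each other on chromosome 6, between 107460668 and 107522952, and as close relatives may share reads. Echs1, of mitochondrial beta-oxidation, was the 1 gene higher and rested on HMP liver 3, with 1.39 to 2.25 CPM in WI 30 min and 1.999, 2.81 and 15.2 CPM in HMP 1 h livers.

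Fitm2, which helps bud lipid droplets from the endoplasmic reticulum (ENSRNOG00000027434, chromosome 3 from 159856994 to 159863506), had the smallest p of all genes. It lay at 70.2, 60.4 and 59.7 CPM in WI 30 min and 35.8, 33.5 and 35.3 CPM in HMP 1 h livers. The livers of each group lay close together, and the log2 fold change was −0.86 (standard error 0.107, edgeR adjusted p = 0.0507; 1.04e-09 from DESeq2). It was called lower without HMP liver 1 (log2 fold change −0.87, adjusted p = 0.0226). Acacb, whose product malonyl-CoA inhibits Cpt1a, lay in the other direction, at 20.7, 25.7 and 27.7 CPM in WI 30 min and 33.9, 45.9 and 54.1 CPM in HMP 1 h livers, and was called higher without HMP liver 1 (log2 fold change 1.03, adjusted p = 0.0417). Of the 19 genes of fatty acid and triglyceride synthesis 5 were higher and 2 lower (median 0.09), and 7 and 2 without HMP liver 1 (median 0.23). Cholesterol synthesis and uptake had 7 of 26 genes higher and 2 lower, and 9 and 1 without HMP liver 1 (median 0.32 in both). Cyp51, a sterol demethylase, had 53.8, 49.8 and 53.7 CPM in WI 30 min and 68.7, 84.3 and 115 CPM in HMP 1 h livers, and Idi1, an isomerase of the same pathway, had a log2 fold change of 1.01.

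Chaperones, which fold proteins and are induced by heat and other stress, lay lower in HMP 1 h livers. Of 28 genes 17 were lower at an unadjusted p under 0.05 and 0 higher (median −0.51), and DESeq2 called 11 lower. Leaving out HMP liver 1, 12 were lower (median −0.41). Hsp90aa1, the inducible cytosolic HSP90 (ENSRNOG00000059714, chromosome 6 from 135107271 to 135112775), had 25.6, 22.2 and 39.0 CPM in WI 30 min and 3.43, 3.998 and 12.4 CPM in HMP 1 h livers (log2 fold change −2.14, standard error 0.412, edgeR adjusted p = 0.0921). Hsp90ab1, the constitutive form, had 1254, 1052 and 986 CPM against 551, 520 and 723 CPM (log2 fold change −0.88). Ahsa1, which activates the HSP90 ATPase, had 110, 86.4 and 82.0 CPM in WI 30 min and 40.9, 44.7 and 56.6 CPM in HMP 1 h livers. None of these overlapped between the groups, and HMP liver 3 was the highest HMP 1 h liver for each. For Hsp90aa1 the lack of overlap was a condition for naming it among the largest changes. Hsph1, an HSP110, and Hspb1, a small heat shock protein, had log2 fold changes of −1.57 and −1.61. Hspd1 and Hspe1, which form the mitochondrial chaperonin, had −0.73 and −1.05. Of 30 genes of endoplasmic reticulum stress and folding 7 were lower and 2 higher (median −0.22), and 1 lower and 3 higher without HMP liver 1 (median −0.11). Hspa5, the chaperone BiP of that compartment, had a log2 fold change of −0.53.

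Heat shock elements, bound by HSF1, were searched as GAANNTTCNNGAA and TTCNNGAANNTTC on both strands in the same windows. They were present in 7 of the 22 chaperone genes with a window (31.8%) and in 267 of all 33469 windows (0.798%). With all livers, the 7 chaperone genes with a match were all lower at an unadjusted p under 0.05 (median log2 fold change −0.84), as were 9 of the 15 without one (median −0.50). These stretches show the matches in capitals, where Hspe1 shares its window with Hspd1, transcribed the other way.
Hsph1 (chr12:10427292-10427367, plus strand): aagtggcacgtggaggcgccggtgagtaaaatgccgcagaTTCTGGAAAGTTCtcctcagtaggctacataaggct
Hspe1 (chr9:64084222-64084319, plus strand): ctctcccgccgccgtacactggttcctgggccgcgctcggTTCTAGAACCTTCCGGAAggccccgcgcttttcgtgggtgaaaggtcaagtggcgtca
Hspa8 (chr8:50080419-50080511, plus strand): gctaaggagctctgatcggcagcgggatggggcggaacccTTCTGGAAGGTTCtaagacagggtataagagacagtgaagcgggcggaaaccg
Hspa8, the constitutive HSC70, had a second match further upstream and a log2 fold change of −0.85. These matches too are a description of the letters.

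Proteasome subunits, without the immune forms, were negative in all 32 cases (median −0.38), with 21 lower at an unadjusted p under 0.05, 0 higher and 4 called lower by DESeq2. The median was −0.29 and 10 were lower without HMP liver 1. Psmd14, the deubiquitinase of the lid, had 40.9, 34.7 and 33.8 CPM in WI 30 min and 18.6, 18.4 and 27.9 CPM in HMP 1 h livers. Psmd2 of the base had 229, 185 and 176 CPM against 117, 124 and 150 CPM. For both genes HMP liver 3 lay nearest to the WI 30 min livers, and the proteasome score was −0.46, −0.38 and −0.02 in HMP livers 1, 2 and 3 and 0.01 to 0.28 in WI 30 min. The immunoproteasome subunits Psmb8, Psmb9 and Psmb10 thus lay on the other side from the constitutive subunits, with log2 fold changes of 1.17, 1.25 and 0.83.

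**Figure D3:**
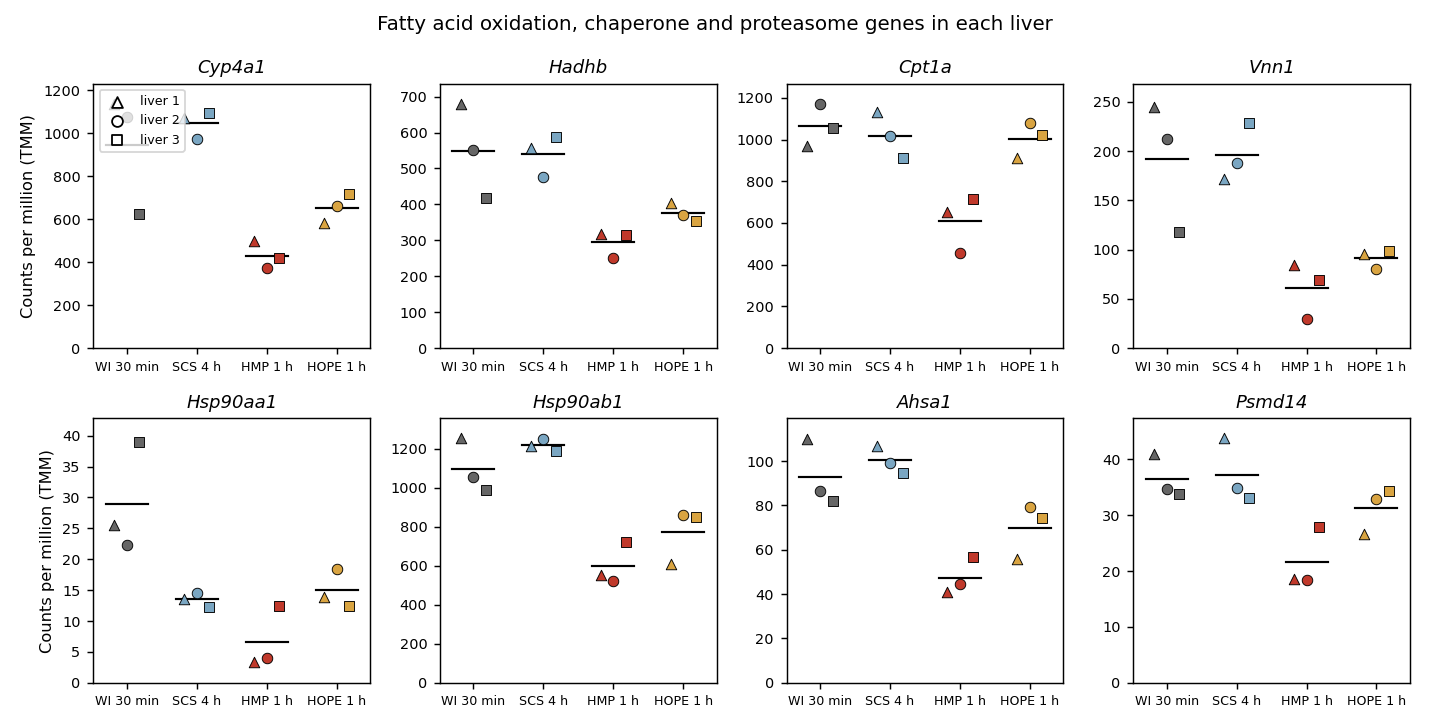
CPM (TMM scaled, axes from 0) of 4 fatty acid oxidation and fasting genes, 3 chaperone genes and 1 proteasome gene in each of the 12 livers, with bars at group means. Cpt1a lies at 968 to 1172 in WI 30 min and 456 to 715 in HMP 1 h, and Psmd14 at 33.8 to 40.9 and 18.4 to 27.9.

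Antioxidant enzymes and targets of NRF2 had 10 of 51 genes lower and 3 higher (median −0.11), and 9 and 2 without HMP liver 1 (median −0.08). Gclc, which limits glutathione synthesis, had 188, 122 and 229 CPM in WI 30 min and 107, 71.9 and 100.01 CPM in HMP 1 h livers (log2 fold change −0.95, edgeR adjusted p = 0.112). Prdx1, a peroxide-reducing peroxiredoxin, had a log2 fold change of −0.55, whereas Gpx1, a glutathione peroxidase named after its values were seen, had 545 to 687 CPM in WI 30 min and 774 to 1053 CPM in HMP 1 h livers. The direction was thus not shared within the list.

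Red blood cell transcripts, which come with the blood left in the tissue, lay lower. Of 14 genes 8 were lower at an unadjusted p under 0.05 and 0 higher (median −1.36), and 9 without HMP liver 1 (median −1.89). Hbb, a beta globin, had 1639, 1396 and 1198 CPM in WI 30 min and 761, 75.0 and 467 CPM in HMP 1 h livers, so that HMP liver 2 held the least. Slc4a1, the anion exchanger of red cells, had 13.1, 11.6 and 10.8 CPM against 9.54, 3.69 and 3.09 CPM and was called lower without HMP liver 1 (log2 fold change −1.79, edgeR adjusted p = 0.00647). Globin genes are close copies of each other and may share reads. The WI 30 min livers are the shared control of every group here, and the median of this list over WI 30 min was −1.65 in SCS 4 h and −1.33 in HOPE 1 h livers.

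In this comparison the transcripts of mitochondrial DNA followed HMP liver 1. Of 13 mRNAs 6 were higher at an unadjusted p under 0.05 (median 0.87), and 1 without HMP liver 1 (median 0.06). Mitochondrial transcripts also took 6.56%, 9.20% and 10.2% of counts in the HOPE 1 h livers, where the mRNAs had a median of 0.74 over WI 30 min. COX1, a subunit of cytochrome c oxidase, had 18387, 15649 and 18907 CPM in WI 30 min, 66537 CPM in HMP liver 1, and 16900 and 21154 CPM in HMP livers 2 and 3. ND6, the complex I subunit encoded on the other strand, had a log2 fold change of 1.15 with all livers and 0.47 without HMP liver 1. Of 76 nuclear genes for the respiratory chain and ATP synthase 8 were lower and 0 higher (median −0.09), and 3 lower and 1 higher without HMP liver 1 (median −0.02). Among 33 genes of mitochondrial fusion, fission and cristae, 29 were negative, 6 lower and 0 higher (median −0.21), and 5 lower and 0 higher without HMP liver 1 (median −0.14). Immt, the core of the cristae junction complex, had 124, 98.3 and 103 CPM in WI 30 min and 57.2, 68.3 and 82.7 CPM in HMP 1 h livers (log2 fold change −0.64, edgeR adjusted p = 0.124), and Opa1, which fuses inner membranes, had a log2 fold change of −0.42.

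The study followed mitophagy, autophagy and cell death through proteins, among them P62, Parkin, Bax and Bcl-2. As transcripts, 0 of 33 mitophagy genes had all HMP 1 h livers above all WI 30 min livers, and 3 had them all below. For 45 autophagy and lysosome genes these counts were 3 and 3, and for 37 cell death genes 5 and 2. Over all tested genes 7.57% lay above and 8.45% below, so most genes of any kind overlapped. The transcript of Parkin is not given here, and transcript levels do not measure the flux that the study read from proteins. Of 33 mitophagy genes 3 were lower and 0 higher (median −0.08), of 45 autophagy and lysosome genes 2 were higher and 2 lower (median −0.05), and of 37 genes of the Bcl-2 family and cell death 7 were higher and 2 lower (median 0.17). In the fit without HMP liver 1, 1 mitophagy gene was lower and 0 higher (median −0.02), 1 autophagy gene was higher and 3 lower (median 0.01), and 4 cell death genes were higher and 3 lower (median 0.00). Pink1, the kinase that marks damaged mitochondria, had 253, 262 and 266 CPM in WI 30 min and 227, 241 and 268 CPM in HMP 1 h livers. The study's methods list no antibody against its protein. Sqstm1, the receptor P62, had 348, 379 and 375 CPM against 318, 319.9 and 407 CPM, and its log2 fold change was −0.08 (standard error 0.148, edgeR adjusted p = 0.853). The groups overlapped for both. Map1lc3b, of the autophagosome membrane, had a log2 fold change of −0.12, the pro-apoptotic Bax 0.17, the nuclear protein Hmgb1 −0.16 and the cytochrome c gene Cycs −0.40, with edgeR adjusted p from 0.265 to 0.815 for these genes. Bcl2, which opposes apoptosis, had 0.282, 0 and 0.423 CPM in WI 30 min and 1.03, 0.562 and 0.592 CPM in HMP 1 h livers (log2 fold change 1.59, edgeR adjusted p = 0.365), and such low levels rest on few counts.

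Of the enzymes measured in perfusate as signs of injury, the lactate dehydrogenase gene Ldha differed most. It had 2218, 1773 and 1328 CPM in WI 30 min and 1017, 872 and 975 CPM in HMP 1 h livers, with no overlap (log2 fold change −0.89, standard error 0.185, adjusted p = 0.0921 from edgeR and 0.000309 from DESeq2). Got1 and Gpt, the aminotransferase genes, had log2 fold changes of −0.47 and −0.30 (−0.17 and −0.05 without HMP liver 1), and HMP liver 1 was the lowest at 199.9 CPM for Got1, where the other 5 livers had 405 to 609.6 CPM. Glycolysis genes had 6 of 24 lower and 3 higher (median 0.23), and 5 and 5 without HMP liver 1 (median 0.02).

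For the remaining lists, leaving out HMP liver 1 moved the median by less than the spread between livers. In several of them the counts at an unadjusted p under 0.05 did change. Bile acid genes had 3 of 25 higher and 2 lower (median 0.13), but 9 higher and 2 lower without HMP liver 1 (median 0.24). Drug-metabolizing P450 genes and their receptors had 2 of 29 higher and 1 lower (median 0.13), but 8 higher and 0 lower without it (median 0.37). Gluconeogenesis and insulin response had 1 of 19 higher and 2 lower (median 0.13), but 4 higher and 0 lower without it (median 0.27). Urea cycle and amino acid breakdown had 1 of 24 higher and 2 lower (median −0.23), and 3 higher and 1 lower without it (median 0.04). The summed level of the P450 list was 16846 to 19654 CPM in WI 30 min and 14054, 21499 and 28160 CPM in HMP livers 1, 2 and 3, so that HMP liver 1 lay below and HMP livers 2 and 3 above the WI 30 min livers. For the urea cycle list HMP liver 1 had 10171 CPM, against 19495 to 22175 CPM in WI 30 min and 24218 and 23517 CPM in HMP livers 2 and 3. Hypoxia response outside glycolysis had 1 of 23 higher and 0 lower (median 0.10), and 0 either way without HMP liver 1 (median −0.01). Core clock genes had 0 of 22 either way (median 0.07), and 1 higher and 0 lower without it (median 0.38). Cytosolic ribosomal proteins had 4 of 76 higher and 2 lower (median 0.06), and 5 and 1 without it (median 0.07).

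Single genes outside these lists include Hprt1, a purine salvage enzyme often used as a reference gene (ENSRNOG00000048561, X chromosome from 158197149 to 158228749). It had 0.338, 0.2499 and 0.242 CPM in WI 30 min, 0.457 CPM in HMP liver 1, and 5.81 and 10.53 CPM in HMP livers 2 and 3. It was called higher without HMP liver 1 (log2 fold change 4.85, standard error 0.531, edgeR adjusted p = 0.00647). Aldh1b1, a mitochondrial aldehyde dehydrogenase, had 0.846, 1.94 and 2.18 CPM against 5.77, 18.7 and 5.66 CPM. LOC100912026 had the largest log2 fold change of the named genes, 4.37, on HMP 1 h values of 37.2, 6.31 and 214 CPM against 3.12 to 5.25 CPM in WI 30 min. Its HMP 1 h livers differed among themselves more than from the other group. Cyp2t1, a P450, had 19.1, 22.7 and 19.8 CPM in WI 30 min and 25.4, 52.7 and 46.8 CPM in HMP 1 h livers, and was called higher without HMP liver 1 (log2 fold change 1.28, adjusted p = 0.00647). Among lower genes, Miga2, of the mitochondrial outer membrane, had 24.0, 22.0 and 23.1 CPM against 15.7, 11.4 and 10.9 CPM, and Gtse1, a microtubule-binding protein of dividing cells, had 6.99, 2.25 and 6.10 CPM against 0.80, 0.625 and 0.329 CPM. Both were called lower without HMP liver 1, at adjusted p of 0.0291 and 0.0347 from edgeR. Of the 28 genes called without HMP liver 1 that were also tested with all livers, 21 had all HMP 1 h livers on 1 side of the WI 30 min livers, and DESeq2 called 21 with all livers. Over all tested genes, 7.57% lay above and 8.45% below, and DESeq2 called 1.24% higher and 1.61% lower. These genes were selected on HMP livers 2 and 3 and the same WI 30 min livers, so neither count is a separate check. Slc30a3, Colq and Klhdc7a were among the lower ones, and Slc30a3 had 11.3 CPM in HMP liver 1 against 0.999 and 1.91 CPM in the other HMP 1 h livers.

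WI liver 3 was the other library that mattered for calls. Without it edgeR called 27 genes, 5 higher and 22 lower, of which 3 were also called without HMP liver 1, namely Fitm2, RT1-S3 and an unnamed transcript on chromosome 8. The genes lower without WI liver 3 include Cyp4a1 (log2 fold change −1.36, adjusted p = 0.022), Hadhb (−1.06, adjusted p = 0.0393), Ldha (−1.07, adjusted p = 0.0452), and, named after their values were seen, Ehhadh, Eci1 and Decr1 of peroxisomal and mitochondrial oxidation. Ehhadh had 1589 and 1359.5 CPM in WI livers 1 and 2, 516 CPM in WI liver 3, and 572, 425 and 315 CPM in HMP 1 h livers. WI liver 3 thus lay among the HMP 1 h livers for this gene.

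Against SCS 4 h livers, preserved as long but without perfusion, edgeR again called 0 genes and DESeq2 133 higher and 300 lower, with 812 higher (5.93%) and 1171 lower (8.56%) at an unadjusted p under 0.05. The fit without HMP liver 1 called 19 genes higher and 17 lower, with 891 higher (6.42%) and 890 lower (6.41%) at an unadjusted p under 0.05. Proteasome subunits were lower than in SCS 4 h in 31 of 32 cases (median −0.59), chaperones in 17 of 28 (median −0.63), fatty acid oxidation genes in 30 of 42 (median −0.55) and nuclear respiratory chain genes in 52 of 76 (median −0.39). These counts were, in the fit without HMP liver 1, 24 (median −0.48), 17 (median −0.54), 26 (median −0.51) and 33 (median −0.30). The SCS 4 h livers had medians over WI 30 min of 0.16, 0.10, 0.04 and 0.28 for the same lists. All 76 respiratory chain genes were positive in SCS 4 h over WI 30 min, 28 of them higher at an unadjusted p under 0.05. HMP 1 h over WI 30 min had a median of −0.09 for that list. Ahsa1 had 94.8 to 107 CPM in SCS 4 h (log2 fold change of HMP 1 h over SCS 4 h −1.08, edgeR adjusted p = 0.0611) and Cyp4a1 970 to 1095 CPM (−1.28, adjusted p = 0.0617). Interferon-stimulated genes were higher than in SCS 4 h in 19 of 51 cases and lower in 1 (median 0.68), and antigen presentation genes higher in 7 of 22 (median 0.75). The interferon list had 13 higher and 0 lower without HMP liver 1 (median 0.60), and the antigen presentation list 5 higher with a much lower median of 0.22. Mx1 had 3.21 to 7.01 CPM in SCS 4 h livers. The blood genes had a median of 0.22 over SCS 4 h, with 2 of 14 higher and 0 lower, but a median of −0.47 without HMP liver 1, with 1 higher and 1 lower. Hbb had a log2 fold change of 0.04 over SCS 4 h, and of −0.62 without HMP liver 1.

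Against HOPE 1 h, which differs from HMP 1 h by the oxygenation of the perfusate, edgeR called 0 genes, with 482 higher (3.52%) and 542 lower (3.96%) at an unadjusted p under 0.05, and DESeq2 called 10 higher and 9 lower. With HMP liver 1 left out, edgeR called 0 either way, and 850 genes were higher (6.12%) and 791 lower (5.7%) at an unadjusted p under 0.05. That fit keeps HOPE liver 3, whose score for markers of cells other than hepatocytes was 0.79. In it 11 of 13 mitochondrially encoded mRNAs were lower in HMP 1 h than in HOPE 1 h and 0 higher (median −0.65). So were 8 of 20 sinusoidal endothelial markers (median −0.58) and 6 of 19 stellate cell markers (median −0.55), again with 0 higher. Interferon-stimulated genes had a median log2 fold change of −0.07, with 2 of 51 higher and 0 lower, and also of −0.07 without HMP liver 1, with 0 either way. Irf7 had 27.6 to 65.4 CPM in HOPE 1 h livers, a range that held 2 of the 3 HMP 1 h livers. Chaperones were lower in HMP 1 h in 8 of 28 cases and higher in 0 (median −0.31), and in 6 without HMP liver 1 (median −0.17). Hsp90aa1 had a log2 fold change of −1.19 (edgeR adjusted p = 0.565). Antigen presentation genes were higher in 5 of 22 (median 0.36), fatty acid oxidation genes lower in 4 of 42 and higher in 2 (median −0.14), and proteasome subunits lower in 3 of 32 (median −0.12). Once HMP liver 1 was left out, antigen presentation genes were higher in 3 cases (median 0.21), fatty acid oxidation genes lower in 9 and higher in 4 (median −0.13), and proteasome subunits lower in 1 (median −0.015). Cpt1a had 912 to 1079 CPM in HOPE 1 h (log2 fold change −0.73, edgeR adjusted p = 0.558), and C1s was higher in HMP 1 h with a log2 fold change of 0.77 (adjusted p = 0.558).

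**Figure D4:**
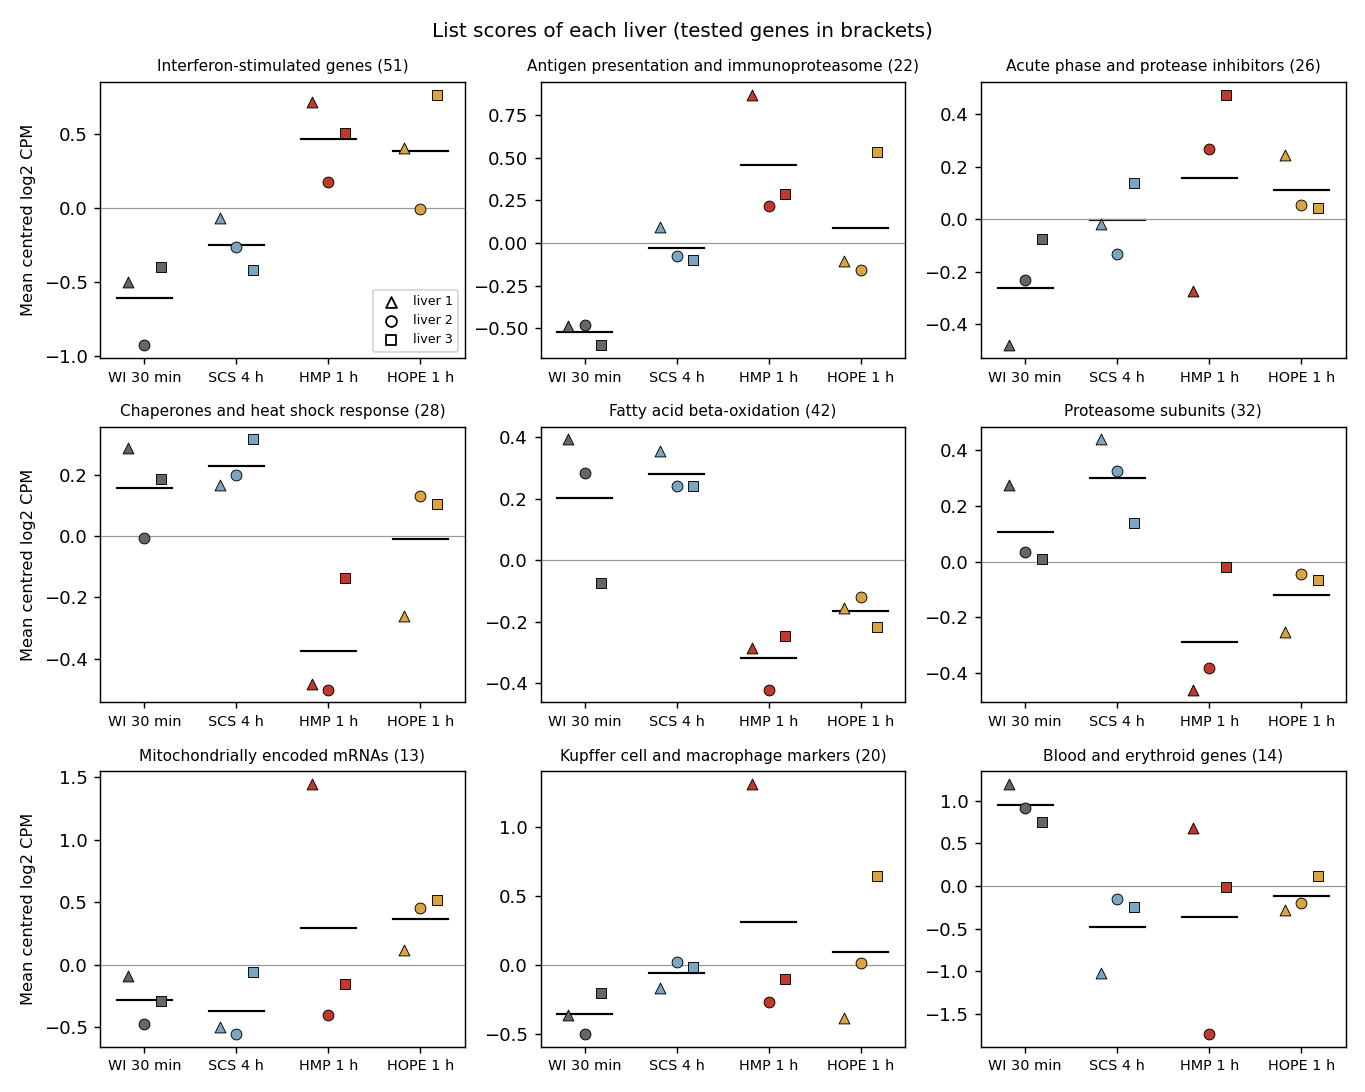
Score of 9 gene lists in each of the 12 livers (log2 units, where 0 is the average liver for each tested gene of the list), with bars at group means. HMP liver 1 lies at 1.45 for mitochondrially encoded mRNAs and at 1.31 for Kupffer cell markers, whereas for interferon-stimulated genes all 3 HMP 1 h livers, at 0.18 to 0.72, lie above the WI 30 min livers.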

How the data were processed

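Whole liver RNA of 12 male Sprague Dawley rats was sequenced by the authors as paired-end libraries, aligned with Hisat2 and assembled with StringTie per the study's methods, on build Rnor 6.0 per the submitters' processing notes. The sources used here give neither the counting tool nor its use of strand, so reads of antisense and overlapping genes may be mixed. The authors deposited raw counts per gene and liver, and FPKM values, which the authors scaled to gene length and depth and which were used only to compare the library totals. The fold changes and p-values of the authors' own comparisons, deposited in the same table, were not used.

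Counts of 33744 genes (861 without a symbol) were analysed in R 4.3.3 with edgeR 4.0.16 (TMM, filterByExpr, quasi-likelihood test on all 12 livers with 1 mean per group, Benjamini-Hochberg adjustment, threshold 0.05), which kept 13687 genes. Its 3 comparisons were HMP 1 h with WI 30 min, SCS 4 h and HOPE 1 h. Each library held 15262961 to 18343167 counts. Groups came from sample labels. Alternatives were DESeq2 1.42.0, RLE scaling, no filter, totals without mitochondrial genes, the 6 livers alone, a replicate block and each liver left out. Coordinates are of Rnor 6.0, except promoters, which are RefSeq windows of build GRCr8.

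The 40 gene lists were chosen with earlier results of these data known, and are described by counts and medians without a test. Named genes were, by rule, the 10 with the largest change in each direction whose livers did not overlap and whose mean was at least 5 CPM, the 5 in each direction without HMP liver 1, up to 3 per list with the smallest p, and 11 genes of the study, of which 1 is not reported here. All others were chosen after their values were seen. The code was tested on simulated data.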

Additional observations from a re-analysis of the deposited data

How the results depend on the processing

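With 3 livers a side the number of edgeR calls turned on single libraries. List medians mostly held while HMP liver 1 was kept. Without it, those of 12 of the 40 lists moved by more than the spread between livers. For HMP 1 h against WI 30 min, with 0 called either way, no filter on low counts gave 9 higher and 10 lower, DESeq2 170 and 220, and DESeq2 without HMP liver 1, added after the data were seen, 189 and 178, of which 211 genes were called by DESeq2 both times. Leaving out 1 liver at a time gave 0 to 17 higher and 0 to 22 lower, the most higher without HMP liver 1 and the most lower without WI liver 3. Against SCS 4 h the same settings gave 4 and 15, 133 and 300, and 169 and 206, and 0 to 19 higher and 0 to 26 lower with 1 liver left out. Against HOPE 1 h DESeq2 gave 10 higher and 9 lower, 75 and 40 without HMP liver 1, and leaving out 1 liver 0 to 1 in each direction. The antigen presentation median ran from 0.72 to 1.30 with 1 liver left out and was 0.71 with DESeq2 without HMP liver 1, and the Kupffer marker median from 0.18 to 1.08, and 0.18 with DESeq2 without HMP liver 1.

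Of 2862 values of the 151 named genes under these settings, 2702 stayed on the same side of the threshold with the same sign, 158 passed it and 2 reversed: Lcn2, of neutrophils, had a log2 fold change of 0.30 with all livers, −0.85 without HMP liver 1 (range to 0.66 with 1 liver left out) and −0.86 with DESeq2 without HMP liver 1. As edgeR called 0 genes with all livers, the same side here means still not called. Most named genes were picked for their change or p in these same livers, so a kept sign is not a separate check. Of 759 list medians 30 moved by more than the spread between livers. Of these, 12 came from the edgeR fit without HMP liver 1, and others from DESeq2 without that liver. The share of higher among genes at an unadjusted p under 0.05 was 52.3% to 53.5% across scalings. Deviations from the group mean correlated at 0.069, −0.028 and 0.080 between same-numbered HMP 1 h and WI 30 min livers. Between differently numbered livers the correlations were −0.088 to 0.031. Deviations within a group of 3 are tied to each other, so these values cannot show whether the numbers pair the livers. The replicate block gave 0 calls either way, with 843 higher and 856 lower at an unadjusted p under 0.05. The 6 livers alone gave 688 and 603.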
